A study of Mus musculus with 24 samples.

Results

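Interferon-induced antiviral and GTPase genes were followed through RANKL-driven osteoclast differentiation of mouse bone marrow-derived macrophages (BMMs). The group holds 42 genes that were chosen by name, with earlier results of these data known. It has 34 antiviral genes typical of type I interferon and 8 GTPase genes typical of interferon gamma. A gene was measured through the array probes whose only gene symbol in the platform annotation was that gene. Of the 42 genes, 33 were tested among the 9917 genes of the arrays, 28 of the antiviral genes and 5 of the GTPases. No probe was paired with Ifi44, Ifi203 and Herc6 in the annotation used here. Too few arrays detected the probes of Ifit1, Ifih1, Xaf1, Gbp5, Iigp1 and Tgtp1 for a test, with Gbp5 detected on 1 array and the other five on 0 of the 24 arrays.

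Transcripts were measured on Illumina mouse bead arrays, with 6 arrays at each of 4 times. Marrow cells of male C57BL/6 mice aged 5 weeks were first grown without added cytokine, and the floating cells were then kept for 72 h in M-CSF at 30 ng/ml, the end of which is 0 h. The attached cells then received 100 ng/ml RANKL on top of the same M-CSF and were taken at 24, 48 and 72 h. No later BMMs in M-CSF alone were analysed here, so RANKL and time in culture cannot be told apart, and every comparison with 0 h shares the same 6 control arrays. Whether the 6 samples of a time stem from different mice or dishes is not given in the labels, so the p-values cover only the variation among these arrays, which may be technical.

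Type I interferons bind a receptor that activates JAK kinases and transcription factors, among them STAT2 and IRF9, which occupy interferon-stimulated response elements and switch on antiviral genes. Interferon gamma acts mainly at gamma-activated sites and is the classical inducer of the guanylate-binding proteins and immunity-related GTPases, large GTPases that attack the vacuoles of intracellular pathogens. In osteoclast precursors, RANKL is known to induce interferon beta through c-Fos, and interferon beta and interferon gamma are both known to restrain osteoclast formation.

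The arrays were alike in quality. Median signals ran from 89.5 to 122 and 15781 to 17109 probes were detected per array, and arrays of one time correlated with a Pearson's r of 0.994 to 0.998. Of 10 osteoclast marker genes, 8 were tested, and 7 of these were upregulated at 24, 48 and 72 h against 0 h, including Ctsk, the collagen-degrading cathepsin K. Macrophage markers such as Csf1r and Adgre1 were present throughout. The signals are those of a mixed culture, so fewer cells of a type and less RNA per cell cannot be told apart.

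Promoter sequences of 6 members that moved clearly are shown to let the letters be read beside the time courses. All 6 hold a match, which many members that rose did not, so they do not stand for the whole group. Each is the 160 bases before the transcription start, read 5′ to 3′ on the gene's strand, from RefSeq on GRCm38.p6. Capitals mark matches, on either strand, to GAAANNGAAA, the core of an interferon-stimulated response element, or to TTCNNNGAA, the core of a gamma-activated site, which is its own reverse complement. Where matches overlap, their capitals run together. Ifit3 lies at chr19:34583369-34583528 on the plus strand, Isg15 at chr4:156200819-156200978 on the minus strand and Rsad2 at chr12:26456453-26456612 on the minus strand. Gbp2 lies at chr3:142620503-142620662, Gbp3 at chr3:142559884-142560043 and Igtp at chr11:58199396-58199555, all on the plus strand. For Ifit3 and Gbp3 the start used here falls inside the annotated span of the gene.
Ifit3: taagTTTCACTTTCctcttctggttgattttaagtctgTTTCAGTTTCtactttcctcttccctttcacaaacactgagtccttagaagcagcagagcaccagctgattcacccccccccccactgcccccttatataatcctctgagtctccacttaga
Isg15: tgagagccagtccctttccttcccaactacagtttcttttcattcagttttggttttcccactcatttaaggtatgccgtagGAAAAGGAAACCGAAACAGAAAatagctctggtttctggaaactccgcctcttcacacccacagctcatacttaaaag
Rsad2: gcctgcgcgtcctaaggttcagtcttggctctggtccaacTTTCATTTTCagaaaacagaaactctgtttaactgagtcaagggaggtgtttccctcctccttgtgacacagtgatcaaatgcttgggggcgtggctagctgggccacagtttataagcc
Gbp2: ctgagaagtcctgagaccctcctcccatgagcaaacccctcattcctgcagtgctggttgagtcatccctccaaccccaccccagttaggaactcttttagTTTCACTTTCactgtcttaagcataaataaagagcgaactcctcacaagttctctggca
Gbp3: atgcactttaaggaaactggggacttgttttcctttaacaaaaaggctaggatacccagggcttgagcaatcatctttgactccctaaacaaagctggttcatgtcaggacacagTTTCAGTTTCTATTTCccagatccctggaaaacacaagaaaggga
Igtp: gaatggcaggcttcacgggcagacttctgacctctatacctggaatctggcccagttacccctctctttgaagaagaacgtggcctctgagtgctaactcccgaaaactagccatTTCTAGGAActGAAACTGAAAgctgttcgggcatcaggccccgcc

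The Isg15 window held 3 overlapping matches to GAAANNGAAA, the Ifit3 window 2 separate ones and the Gbp3 window 2 overlapping ones, whereas Igtp carried 1 match to each motif. In the 250 bases before the start, GAAANNGAAA was found in 9 of 24 antiviral genes with a RefSeq entry (37.5%) and in 6 of 7 GTPase genes (85.7%), against 3.46% of all 27025 genes. TTCNNNGAA was found in 6 of the 24 antiviral genes (25.0%) and in 3 of the 7 GTPases (42.9%), against 8.13% of all genes. Both motifs occurred in 2 antiviral genes (8.33%), Oas1a and Bst2, and in 3 GTPases (42.9%), Gbp5, Igtp and Tgtp1, against 0.459% of all genes. Members that rose with a match to neither motif in these 250 bases include Oasl1, Oasl2, Cmpk2, Ddx58 and Ifi47. A match is a description of letters and not a binding site. No entry was matched for Oas2, Mx1, Mx2, Usp18, Dhx58, Parp14, Parp9, Zbp1, Rtp4, Ifi204 and Iigp1.

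The antiviral genes were upregulated as a body within 24 h of RANKL. All 28 tested antiviral genes were higher at 24 h than at 0 h and 0 were lower, at an adjusted p under 0.05 in limma, while 29.2% of the 9917 genes were higher and 37.8% were lower. The rise was at least 1.5-fold for 25 of the 28, against 8.29% of all genes, and their median change was 1.30 in log2, or 2.46-fold, against -0.05 for all genes. In 27 of them the 6 arrays at 24 h all lay above the 6 arrays at 0 h, which held for 20.5% of all genes, and the exception was Zbp1. The 28 include 4 genes, Isg20, Mx1, Parp9 and Ifi204, that were not detected on 3 or more arrays at 0 h. They entered the test through a later time, which favours a rise. Among the 24 that were detected at 0 h, 24 were higher at 24 h and the median change was 1.48. With 75th percentile scaling of the arrays the share of higher calls among all called genes was 32.2% in place of 43.6%, and the 28 antiviral genes were still all higher.

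At 48 h the antiviral genes remained above 0 h, and by 72 h most of the rise had been lost. All 28 were higher at 48 h than at 0 h, with a median change of 1.04, when 33.1% of all genes were higher and 39.2% were lower. The 48 h increase was at least 1.5-fold for 23 genes (all genes, 10.8%), and for 27 the 6 arrays lay wholly above those at 0 h (all genes, 24.4%). At 72 h against 0 h, 24 were higher, Oas1a was lower and Mx2, Dhx58 and Ifi35 did not pass the test, when 34.2% of all genes were higher and 39.4% were lower. The median change at 72 h was 0.36, and 11 genes were still at least 1.5-fold higher, a share set beside 11.7% of all genes, while 16 had arrays wholly above those at 0 h, beside 25.0% of all genes. Among the 24 genes detected at 0 h, the counts at 72 h were 20 higher and 1 lower, with a median of 0.39.

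Day by day, the rise fell into the first day and the largest fall into the last. From 24 h to 48 h, 20 of the 28 antiviral genes were lower, 3 were higher and 5 did not pass, when 39.2% of all genes were higher and 34.6% were lower. The median change over that day was -0.28, and the 3 higher genes were Ifit2, Zbp1 and Samhd1, all by less than 1.5-fold. A fall of at least 1.5-fold was seen in 7 (all genes, 14.1%), and in 18 the arrays at 48 h lay wholly below those at 24 h (all genes, 27.1%). From 48 h to 72 h, 26 were lower and 0 were higher, when 17.4% of all genes were higher and 19.4% were lower, and Bst2 and Ifi204 did not pass. The median change over that day was -0.69, and 17 were at least 1.5-fold lower, against 2.63% of all genes, and 24 had arrays at 72 h wholly below those at 48 h, against 11.2%. With the authors' processed values and with median scaling, higher calls that day were 34.2% and 28.0% of all called genes, not 47.4%. In each of these settings 27 antiviral genes were lower.

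**Figure D1:**
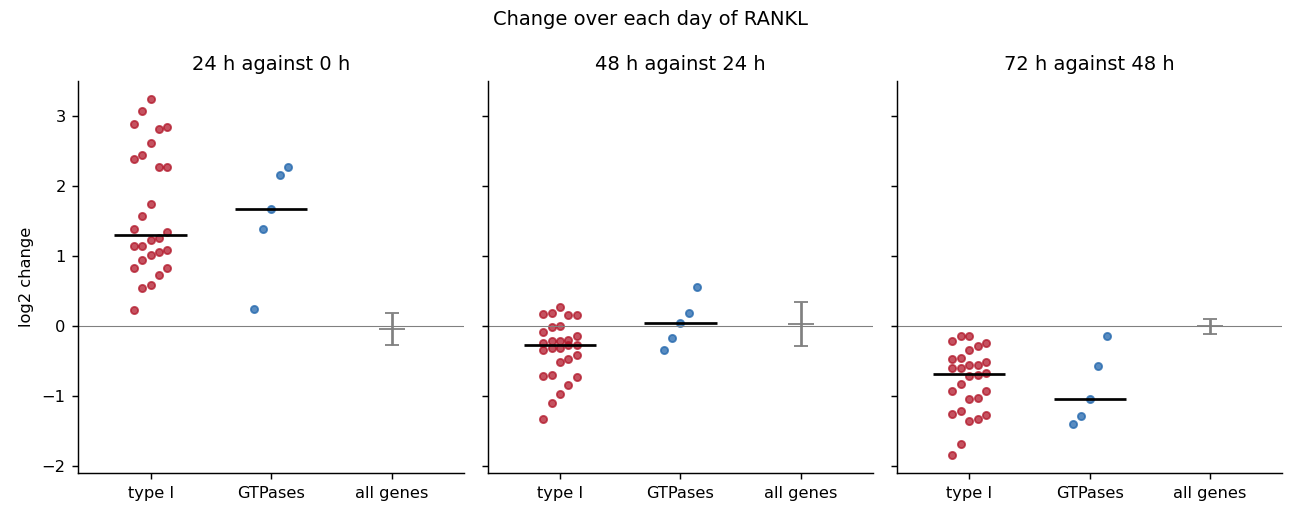
Log2 change over each day of RANKL (24 h against 0 h, 48 h against 24 h, 72 h against 48 h) for the 28 tested antiviral genes (red points) and the 5 tested GTPases (blue points), with black lines at the medians and, for all 9917 genes, the median with lower and upper quartiles in grey. The antiviral median went from 1.30 to -0.28 to -0.69 and the GTPase median from 1.67 to 0.04 to -1.04. The median of all genes stayed between -0.05 and 0.03. The lowest blue point at 24 h is Irgm1, whose change there was -0.00 with 75th percentile scaling.

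The IFIT genes encode tetratricopeptide repeat proteins that bind viral RNA or join complexes that do, and both tested members rose steeply. Ifit3 (chr19:34583119-34588982) had log2 signals of 9.14 to 9.38 (median 9.34) at 0 h, 12.42 to 12.77 (12.56) at 24 h, 12.23 to 12.38 (12.26) at 48 h and 10.55 to 10.61 (10.60) at 72 h. The groups of 6 arrays did not overlap between any pair of times, and the change at 24 h was 3.25 with a standard error of 0.0505, or 9.53-fold (limma, adjusted p = 2.53e-34). Ifit3 was still 2.43-fold above 0 h at 72 h. Ifit2 (chr19:34550550-34576534) ran from 7.39 to 7.73 (7.60) at 0 h, 10.21 to 10.60 (10.53) at 24 h, 10.51 to 10.88 (10.60) at 48 h and 8.71 to 8.89 (8.79) at 72 h. It was 7.40-fold above 0 h at 24 h (adjusted p = 4.81e-29 in limma) and 8.34-fold at 48 h, its arrays overlapped between 24 and 48 h, and it then fell by 1.85 on the log2 scale to 72 h. The small increase of Ifit2 from 24 h to 48 h, 0.17, no longer passed under the other scalings or without replicate 2 or replicate 4. Other probes of Ifit2 and Ifit3 moved the same way against 0 h, by 2.49 and 2.91 at 24 h.

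Isg15 encodes a ubiquitin-like protein that is attached to other proteins during the interferon response, and Usp18 encodes the protease that removes it and also dampens the type I receptor. Isg15 (chr4:156199424-156200818) ran from 8.11 to 8.17 (8.12) at 0 h, 10.76 to 11.37 (10.95) at 24 h, 9.62 to 10.01 (9.88) at 48 h and 8.38 to 8.68 (8.56) at 72 h. Each time was separated from the others on all 6 arrays, with a 7.22-fold rise at 24 h (adjusted p = 1.34e-27 in limma) that shrank to 3.34-fold by 48 h and 1.33-fold by 72 h. Usp18 (chr6:121245906-121270917) ran from 9.93 to 10.12 (10.01) at 0 h, 12.16 to 12.35 (12.28) at 24 h, 11.42 to 11.81 (11.57) at 48 h and 10.21 to 10.43 (10.29) at 72 h. It followed the same course as Isg15, 4.83-fold above 0 h at 24 h (adjusted p = 6.26e-29 in limma), 2.95-fold by 48 h and 1.22-fold by 72 h. The increase of Usp18 at 72 h did not pass with median scaling or 75th percentile scaling, while another probe of the gene was 1.86-fold higher at that time.

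The OAS family makes 2′-5′ oligoadenylates that activate RNase L, and of its OASL relatives mouse Oasl1 lacks that activity and acts on Irf7 translation. Oasl1 (chr5:114923143-114937911) ran from 7.62 to 7.83 (7.65) at 0 h, 10.67 to 10.82 (10.75) at 24 h, 9.29 to 9.50 (9.41) at 48 h and 7.98 to 8.11 (8.05) at 72 h. The gene exceeded its 0 h level 8.39-fold at 24 h (limma, adjusted p = 8.66e-34) and lost 1.34 in log2 over the next day, the deepest fall of the 28 antiviral genes from 24 h to 48 h. Oasl2 (chr5:114896926-114912245) ran from 9.64 to 9.85 (9.74) at 0 h, 12.25 to 12.44 (12.38) at 24 h, 11.92 to 12.11 (12.05) at 48 h and 10.90 to 11.09 (11.00) at 72 h. Its rise was 6.15-fold at 24 h (adjusted p = 2.44e-32 in limma) and 2.39-fold remained at 72 h, so the OASL pair parted after 24 h. Oas2 (chr5:120730333-120749886) ran from 8.53 to 8.81 (8.66) at 0 h, 11.03 to 11.19 (11.11) at 24 h, 10.80 to 10.92 (10.85) at 48 h and 9.44 to 9.79 (9.66) at 72 h. An increase of 5.43-fold was reached by 24 h (adjusted p = 1.29e-29 in limma) and 1.95-fold was left by 72 h, with no overlap of arrays between any pair of times.

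The other OAS genes moved less. Oas3 rose 2.53-fold by 24 h and stood 1.11-fold above 0 h at 72 h, where it did not pass with median scaling or without replicate 6. Oas1a rose 1.66-fold by 24 h (adjusted p = 6.86e-12 in limma), stood 1.19-fold above 0 h at 48 h and ended 1.27-fold below 0 h at 72 h (adjusted p = 2.06e-05). The Oas1a arrays at 72 h, 7.17 to 7.48, overlapped those at 0 h, 7.47 to 7.94. It was the only antiviral gene of the 28 to pass the test below 0 h under quantile normalization, and with the authors' processed values and the other scalings Dhx58 passed as well.

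Rsad2 encodes viperin, which makes a chain-terminating nucleotide, and Cmpk2, its neighbour on chromosome 12, encodes a mitochondrial nucleotide kinase that supplies the same pathway. Rsad2 (chr12:26442743-26456452) ran from 9.24 to 9.36 (9.27) at 0 h, 11.97 to 12.17 (12.11) at 24 h, 11.26 to 11.51 (11.36) at 48 h and 10.27 to 10.55 (10.45) at 72 h. The 7.08-fold rise at 24 h (adjusted p = 2.61e-32 in limma) left 2.25-fold at 72 h. Cmpk2 (chr12:26469117-26479837) ran from 8.16 to 8.55 (8.33) at 0 h, 10.60 to 10.88 (10.72) at 24 h, 9.62 to 9.88 (9.76) at 48 h and 8.36 to 8.58 (8.51) at 72 h. Its rise was 5.23-fold at 24 h (adjusted p = 5.28e-27 in limma), but at 72 h its arrays overlapped those at 0 h and the difference was 1.11-fold, which did not pass with the other scalings or without replicate 2 or replicate 5. The neighbours thus shared the early rise and differed in the level kept at 72 h, 1.17 against 0.15 in log2, a difference that was not tested.

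Among the nucleic acid sensors, Ddx58 (RIG-I) and Dhx58 (LGP2) bind viral RNA, Zbp1 binds left-handed nucleic acids, Ifi204 binds DNA and Eif2ak2 (PKR) halts translation on double-stranded RNA. Ddx58 (chr4:40203777-40239825) ran from 7.55 to 7.97 (7.80) at 0 h, 9.92 to 10.17 (10.08) at 24 h, 9.50 to 9.85 (9.74) at 48 h and 8.90 to 9.16 (8.99) at 72 h. By 24 h its level had risen 4.84-fold (adjusted p = 4.23e-26 in limma), of which 2.32-fold was left by 72 h. Eif2ak2 (chr17:78850504-78882572) ran from 10.00 to 10.29 (10.14) at 0 h, 11.57 to 11.94 (11.67) at 24 h, 10.74 to 11.12 (10.84) at 48 h and 10.12 to 10.57 (10.35) at 72 h. Most of its 2.98-fold rise at 24 h (adjusted p = 2.07e-20 in limma) was gone by 48 h, at 1.65-fold, and its 1.15-fold difference at 72 h did not pass with the other scalings or without replicate 2. Dhx58 was 2.22-fold higher at 24 h and 1.82-fold at 48 h, and its change at 72 h, -0.07, did not pass. Zbp1 had the smallest change of these sensors at 24 h, 0.23, with 0.40 at 48 h and 0.19 at 72 h, and another of its probes gave 1.12 at 48 h. Ifi204 rose by 0.58 in log2 at 24 h, from a level that was detected on 1 array at 0 h.

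Parp14, Parp9 and Dtx3l encode ADP-ribosyltransferases and a ubiquitin ligase partner of PARP9. Parp14 (chr16:35831892-35871518) ran from 10.79 to 11.00 (10.84) at 0 h, 12.57 to 12.63 (12.60) at 24 h, 12.40 to 12.53 (12.44) at 48 h and 11.74 to 11.98 (11.82) at 72 h. The 24 h arrays exceeded those at 0 h 3.34-fold (limma, adjusted p = 7.9e-28) and those at 72 h did so 1.97-fold, with all times apart from each other. Dtx3l exceeded its 0 h level 2.35-fold at 24 h, 2.34-fold by 48 h and 1.59-fold by 72 h, whereas another probe of Dtx3l, detected on all arrays, changed by 0.02, 0.06 and 0.08. Parp9 was detected on 2 arrays at 0 h and was 1.46-fold higher at 24 h and 1.25-fold at 48 h.

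**Figure D2:**
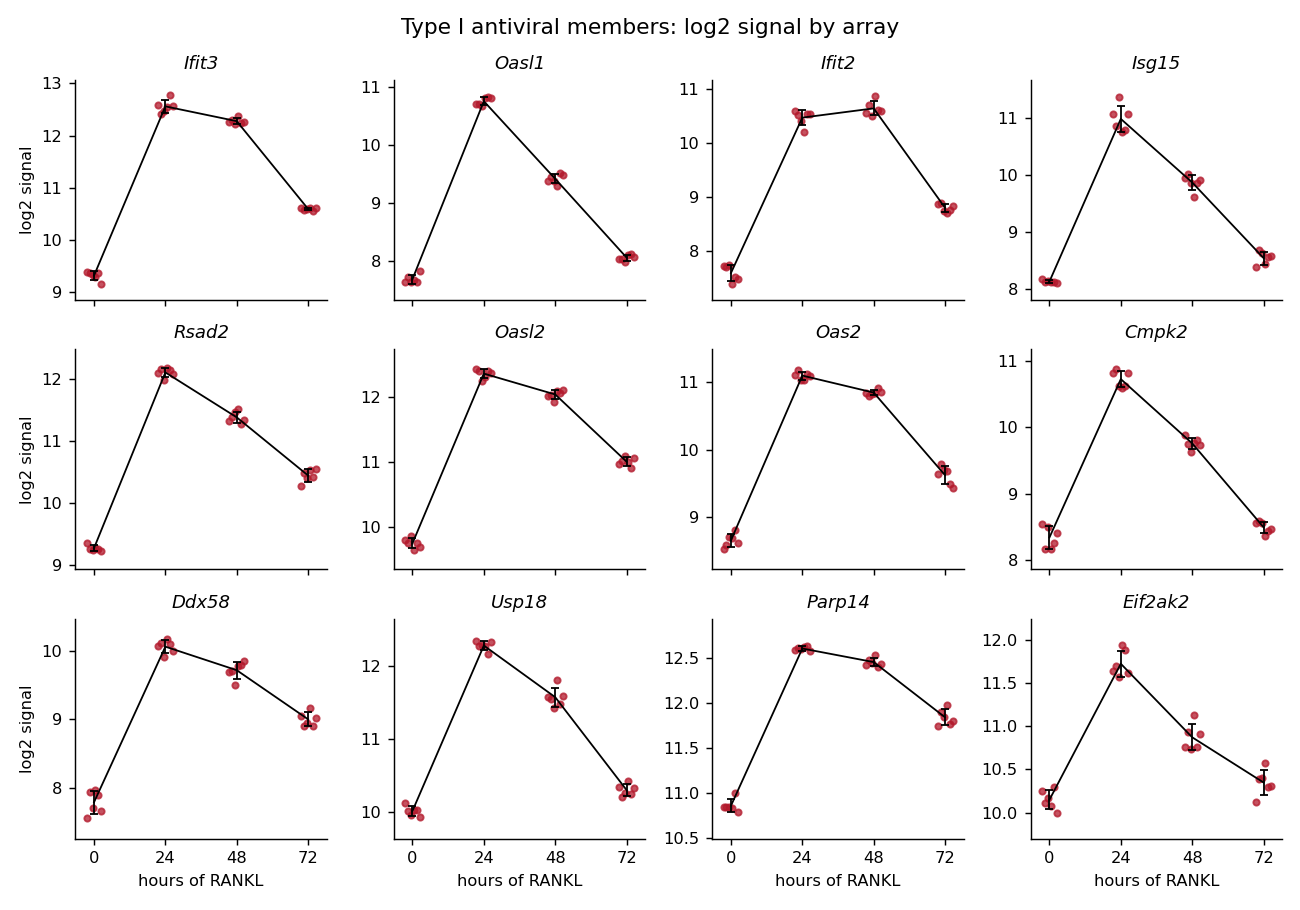
Log2 signal on each array (red points, 6 per time) against hours of RANKL for the 12 antiviral genes with the largest change from 0 h, with lines through the means and bars of 1 SD. Ifit3, for example, has medians of 9.34 before RANKL, 12.56 at 24 h and 10.60 at 72 h, and all panels but that of Ifit2 have their highest mean at 24 h.

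The remaining antiviral effectors rose by smaller amounts. The dynamin-like GTPase genes Mx1 and Mx2, which block viral ribonucleoproteins, were measured near the detection limit. Mx1, which carries an inactivating deletion in C57BL/6 and many other inbred strains, was detected on 0 arrays at 0 h and 72 h, and was at least 1.59-fold higher at 24 h (adjusted p = 1.08e-19 in limma) and at least 1.38-fold higher at 48 h. The bound sets the mean of the brighter time against the lowest detected signal of each array of the dimmer time, or the probe's own signal where that was higher. Mx2 rose 2.63-fold by 24 h, was 1.97-fold up by 48 h and was back at its 0 h level within the spread at 72 h, where its change was -0.05 (adjusted p = 0.428 in limma). Isg20, an exonuclease gene detected on 0 arrays at 0 h and 72 h, was at least 1.48-fold higher at 24 h and at least 1.18-fold at 48 h. Ifi35, a leucine zipper protein gene, was 2.39-fold higher at 24 h and 1.44-fold at 48 h, with 0.06 at 72 h, which did not pass. Rtp4, a receptor chaperone gene with antiviral activity, was 2.23-fold higher at 24 h and 1.19-fold at 72 h.

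Other effectors had their highest mean at 48 h or kept more of their rise. Samhd1, which depletes the nucleotides needed for reverse transcription, exceeded its 0 h level 1.78-fold at 24 h, 2.15-fold by 48 h and 1.68-fold by 72 h, and another of its probes was 3.01-fold higher at 48 h. Trim30a, a tripartite motif gene that restrains NF-κB signalling, exceeded its 0 h level 2.03-fold, 2.27-fold and 1.28-fold at these times. Sp100, a nuclear body gene, was 2.09-fold, 1.96-fold and 1.65-fold higher, and its other probes placed 48 h above 24 h where the representing probe did not. Bst2, which encodes the virion tether tetherin, was 1.77-fold, 1.96-fold and 1.61-fold higher, with arrays at 24 h spread from 10.50 to 11.36. By mean signal, the highest time was 24 h for 23 of the 28 antiviral genes and 48 h for 5, which were Ifit2, Bst2, Zbp1, Trim30a and Samhd1. In all 5 the arrays at 24 h and 48 h overlapped. The steps between these times did not pass for Bst2, at 0.15, and Trim30a, at 0.16.

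The GTPases typical of interferon gamma rose as well. All 5 tested GTPases were higher at 24 h than at 0 h, when 29.2% of all genes were, and 4 of them rose at least 1.5-fold, beside 8.29% of all genes, with a median change of 1.67. With the authors' processed values, median scaling and 75th percentile scaling 4 of the 5 were higher, since Irgm1 no longer passed. At 48 h against 0 h, 4 were higher and 1, Irgm1, did not pass, with a median of 1.86, and 33.1% of all genes were higher. At 72 h 4 were higher and Irgm1 was lower, with a median of 0.80, beside 34.2% of all genes higher and 39.4% lower. With no filter on dim probes, which brought in the other 3 GTPases, the medians at the 3 times were 0.99, 0.74 and 0.36. Irgm1 is set apart below because its probes differed in direction against 0 h at 48 h and 72 h. All its kept probes rose at 24 h, but the change of the brightest was -0.00 with 75th percentile scaling. The 4 other tested GTPases had medians of 1.92, 2.03 and 0.81 at the 3 times against 0 h.

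Gbp2 and Gbp3 encode guanylate-binding proteins, which coat and open pathogen vacuoles. Gbp2 (chr3:142620663-142638008) ran from 8.39 to 8.82 (8.61) at 0 h, 10.76 to 11.00 (10.89) at 24 h, 11.32 to 11.70 (11.37) at 48 h and 9.94 to 10.28 (10.12) at 72 h. An increase of 4.85-fold was reached by 24 h (adjusted p = 8.34e-26 in limma) and grew to 7.15-fold by 48 h, with the 6 arrays at 48 h all above those at 24 h. At 72 h 2.92-fold was left. Another, dimmer probe of Gbp2 also placed 48 h above 24 h, by 0.29. Gbp3 (chr3:142560016-142573213) ran from 7.85 to 8.16 (8.02) at 0 h, 10.12 to 10.24 (10.15) at 24 h, 10.08 to 10.37 (10.20) at 48 h and 8.69 to 8.90 (8.80) at 72 h. Its 4.46-fold rise at 24 h (adjusted p = 1.67e-27 in limma) was held at 48 h, where the change from 24 h was 0.04 and did not pass, and then fell by 1.40 to 72 h. That small step was negative with the authors' processed values, with median scaling and in another probe of Gbp3.

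Ifi47 and Igtp are immunity-related GTPases, Ifi47 an effector type and Igtp a regulatory type. Ifi47 (chr11:49076587-49096987) ran from 8.21 to 8.42 (8.38) at 0 h, 9.86 to 10.15 (9.98) at 24 h, 9.91 to 10.34 (10.23) at 48 h and 9.06 to 9.29 (9.15) at 72 h. It exceeded its 0 h level 3.19-fold at 24 h (adjusted p = 7.33e-23 in limma), 3.64-fold by 48 h and 1.77-fold by 72 h. The step of Ifi47 from 24 h to 48 h, 0.19, overlapped between the arrays and did not pass with the authors' processed values, with median scaling or without replicate 3. Igtp (chr11:58199556-58207592) ran from 8.85 to 9.11 (8.90) at 0 h, 10.21 to 10.43 (10.31) at 24 h, 10.01 to 10.29 (10.13) at 48 h and 9.41 to 9.64 (9.62) at 72 h. Its excess over 0 h was 2.63-fold at 24 h (limma, adjusted p = 7.49e-22), 2.32-fold by 48 h and 1.56-fold by 72 h, so that of these GTPases Igtp followed the antiviral pattern of a highest mean at 24 h.

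Irgm1, a regulatory immunity-related GTPase gene that governs autophagy and the other family members, gave different answers by probe. The probe with the highest signal, which represents the gene (chr11:48865245-48871420), ran from 13.08 to 13.39 (13.34) at 0 h, 13.35 to 13.63 (13.59) at 24 h, 13.12 to 13.25 (13.17) at 48 h and 12.86 to 13.17 (13.03) at 72 h. Its changes against 0 h were 0.24 at 24 h (adjusted p = 0.000628 in limma), -0.11 at 48 h (adjusted p = 0.106) and -0.26 at 72 h (adjusted p = 0.000194), and the 24 h change was -0.00 with 75th percentile scaling. Another probe, also detected on every array, gave 1.59, 1.83 and 1.27 at the same times, and the dimmest kept probe gave 0.92, 0.77 and 0.44. Without replicate 4 or replicate 5, the 48 h change of -0.15 or -0.14 passed the test. The direction of Irgm1 at 48 h and 72 h was therefore not settled by these arrays, and the cause of the disagreement was not tested.

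**Figure D3:**
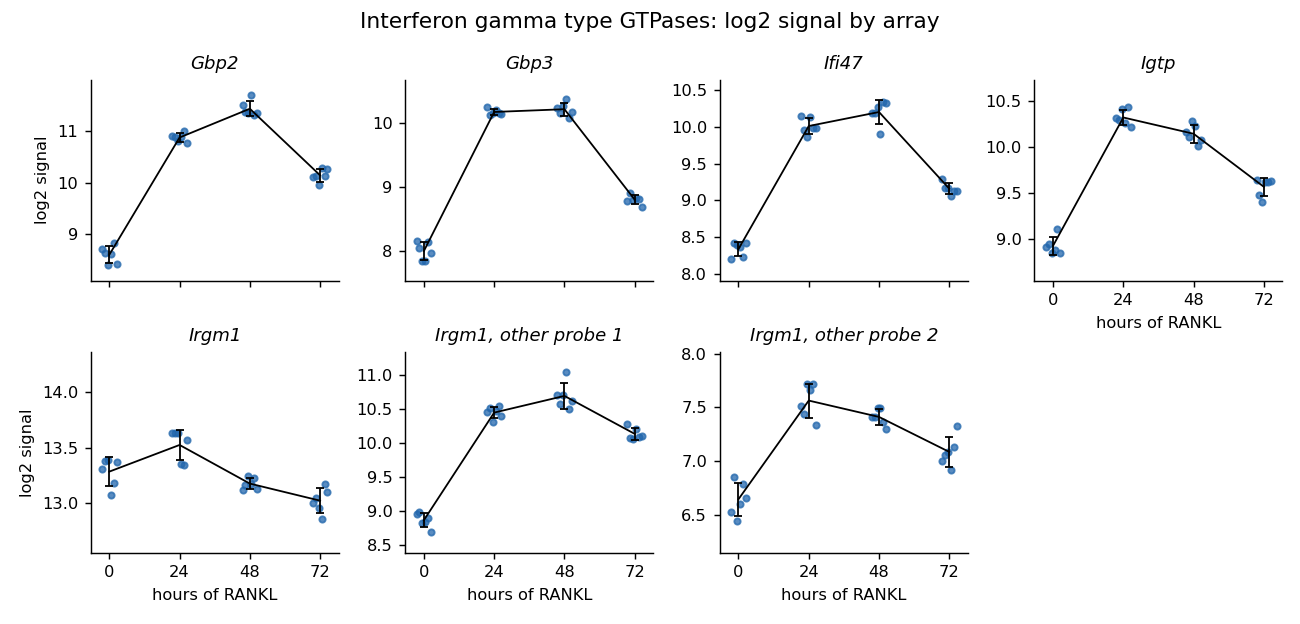
Log2 signal on each array (blue points, 6 per time) against hours of RANKL for the 5 tested GTPases and the other kept probes of Irgm1, with lines through the means and bars of 1 SD. Gbp2 and Ifi47 have their highest mean at 48 h, at medians of 11.37 and 10.23, and Igtp has it at 24 h. The bright Irgm1 probe stays between 12.86 and 13.63, and its 24 h change was -0.00 with 75th percentile scaling. The other Irgm1 probes rise by 1.59 and 0.92 at 24 h.

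In the middle day the antiviral genes mostly fell, while the GTPases were divided. From 24 h to 48 h, 20 of the 28 antiviral genes fell and 3 rose, with a median of -0.28. Among the 5 GTPases 2 rose (Gbp2 and Ifi47), 2 fell (Igtp and Irgm1) and Gbp3 did not pass, with a median of 0.04. Of all genes 39.2% rose and 34.6% fell over that day, so the GTPase counts lay near the background. The highest mean stood at 48 h for 3 of the 5 GTPases and for 5 of the 28 antiviral genes. Of these genes only Gbp2 had all its 48 h arrays above those at 24 h. The step did not pass for Gbp3, Bst2 and Trim30a, and that of Ifi47 did not pass in several settings. Over the last day both fell. All 5 GTPases were lower at 72 h than at 48 h, beside 19.4% of all genes. In 3 of them the fall was at least 1.5-fold, beside 2.63% of all genes. The GTPase median was -1.04, beside -0.69 for the antiviral genes, and it was -0.39 with no filter on dim probes. The smallest of these falls, that of Irgm1 by 0.15, did not pass without any 1 of replicates 1 to 4. The difference between the groups was not tested, since genes are not replicates and the GTPases number 5. Across all processing settings the medians from 24 h to 48 h ran from -0.36 to -0.25 for the antiviral genes and from -0.08 to 0.19 for the GTPases.

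**Figure D4:**
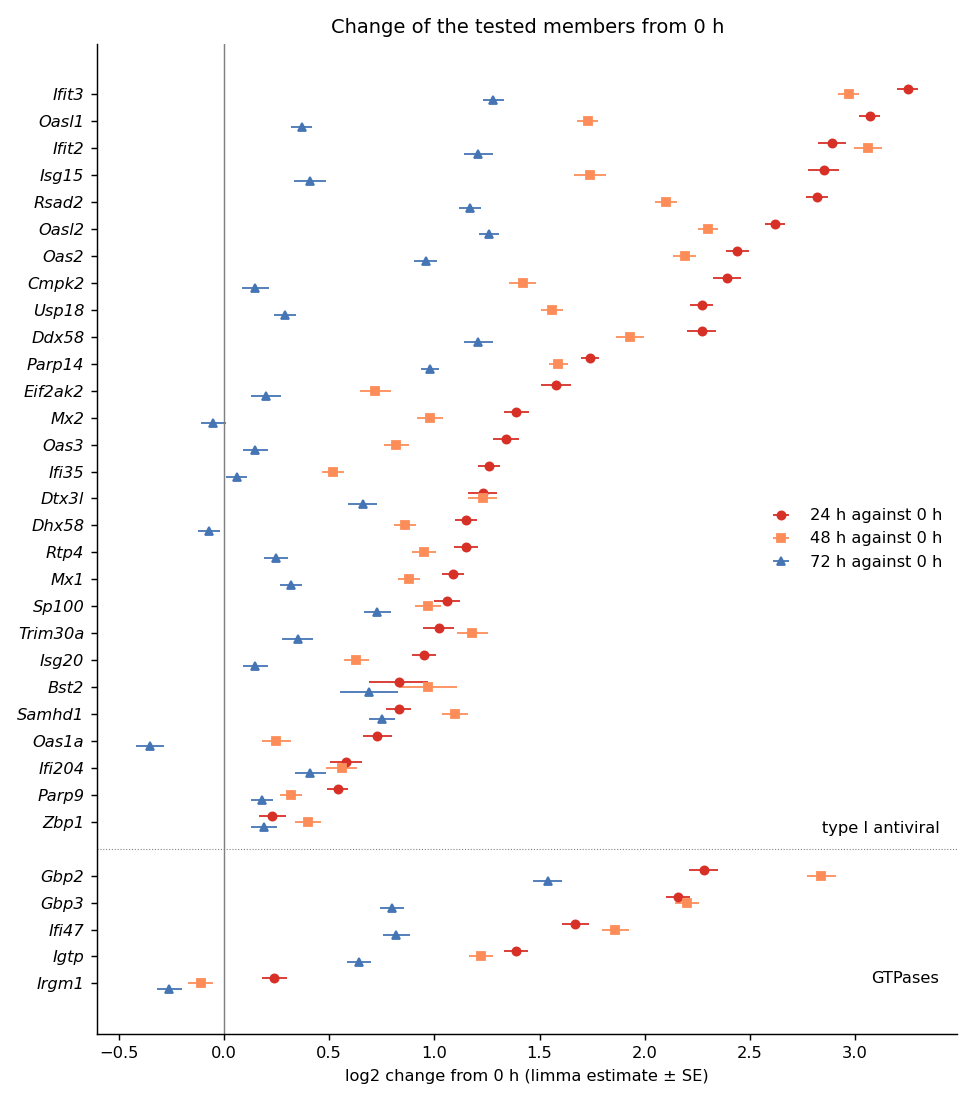
Log2 change from 0 h (limma estimate with a bar of 1 standard error either way) at 24 h (red circles), 48 h (orange squares) and 72 h (blue triangles) for the 28 antiviral genes, ordered by their change at 24 h, and the 5 GTPases below the dotted line. Changes at 24 h run from 0.23 for Zbp1 to 3.25 for Ifit3. Gbp2 and Ifi47, for example, lie further right at 48 h than at 24 h. Oas1a and Irgm1 are the members that pass the test below 0 h at 72 h. The Irgm1 change at 24 h was -0.00 with 75th percentile scaling.

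How far the members stood above 0 h at 72 h did not simply follow the size of their early rise. Oasl1 and Isg15 rose 8.39-fold and 7.22-fold at 24 h and were 1.29-fold and 1.33-fold above 0 h at 72 h, whereas Ifit3, Ifit2, Oasl2 and Ddx58 ended 2.32-fold to 2.43-fold above it. Gbp2 ended highest among the members tested, at 2.92-fold. Bst2, Samhd1 and Sp100 had early rises of 1.77-fold to 2.09-fold and ended 1.61-fold to 1.68-fold above 0 h. Folds of dim probes such as those of Mx1, Isg20 and Parp9 are compressed because the deposited signals carry their background. Near-identical gene copies may share a probe, as could be so for Ifit3, Oas1a and Ifi204, and this was not tested.

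Upstream of these genes, the 3 interferon genes examined were below detection, and Irf7, Irf9 and Irf1 rose. A list of 29 interferon, receptor, sensor and signalling genes, also chosen with earlier results of these data known, was examined, of which 21 were tested. The probes of Ifnb1, Ifna4 and Ifng, of the receptor chain gene Ifnar1 and of the sensor genes Tlr3 and Tlr9 were detected on 0 of the 24 arrays, and Socs1, a feedback inhibitor, on 1 array. Of the 21 tested genes, 8 rose and 5 fell by 24 h against 0 h, beside 29.2% and 37.8% of all genes. By 48 h 15 had risen and 2 had fallen (all genes, 33.1% and 39.2%), by 72 h 15 and 4 (all genes, 34.2% and 39.4%), and the medians at the 3 times were 0.08, 0.42 and 0.42. The median at 24 h became -0.07 with 75th percentile scaling.

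Irf7, the factor that amplifies type I interferon, ran from 7.51 to 7.89 (7.75) at 0 h, 9.93 to 10.23 (10.05) at 24 h, 10.26 to 10.49 (10.39) at 48 h and 8.56 to 8.92 (8.82) at 72 h. An increase of 5.11-fold was reached by 24 h (adjusted p = 7.04e-27 in limma) and of 6.35-fold by 48 h, and the level then fell by 1.60 in log2 to 72 h. Irf9 and Stat2, whose products act at interferon-stimulated response elements, also rose, Irf9 by 0.94, 1.15 and 0.66 and Stat2 by 0.87, 0.72 and 0.13 at 24, 48 and 72 h. Stat2 was not among the genes taken by size of change and is given because its product acts with that of Irf9.

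Other signalling genes followed courses of their own. Ikbke, a kinase gene that activates IRF3 and IRF7, changed by 0.51, 1.48 and 1.93 at 24, 48 and 72 h, and Irf1, which acts downstream of interferon gamma, by 1.02, 1.39 and 1.23. The interferon gamma receptor genes Ifngr1 and Ifngr2 were 1.86-fold and 1.93-fold higher at 72 h, after changes of 0.08, which did not pass, and 0.31 at 24 h. Irf8, a macrophage factor that restrains osteoclast formation, dropped 2.28-fold by 24 h (adjusted p = 1.18e-18 in limma) and was 1.34-fold higher at 48 h and at 72 h, with no overlap of arrays in any of these comparisons. Cgas, a DNA sensor gene, rose 2.37-fold by 24 h but lay 1.43-fold below 0 h by 48 h, while another of its probes changed by 0.35 and 0.07.

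**Figure D5:**
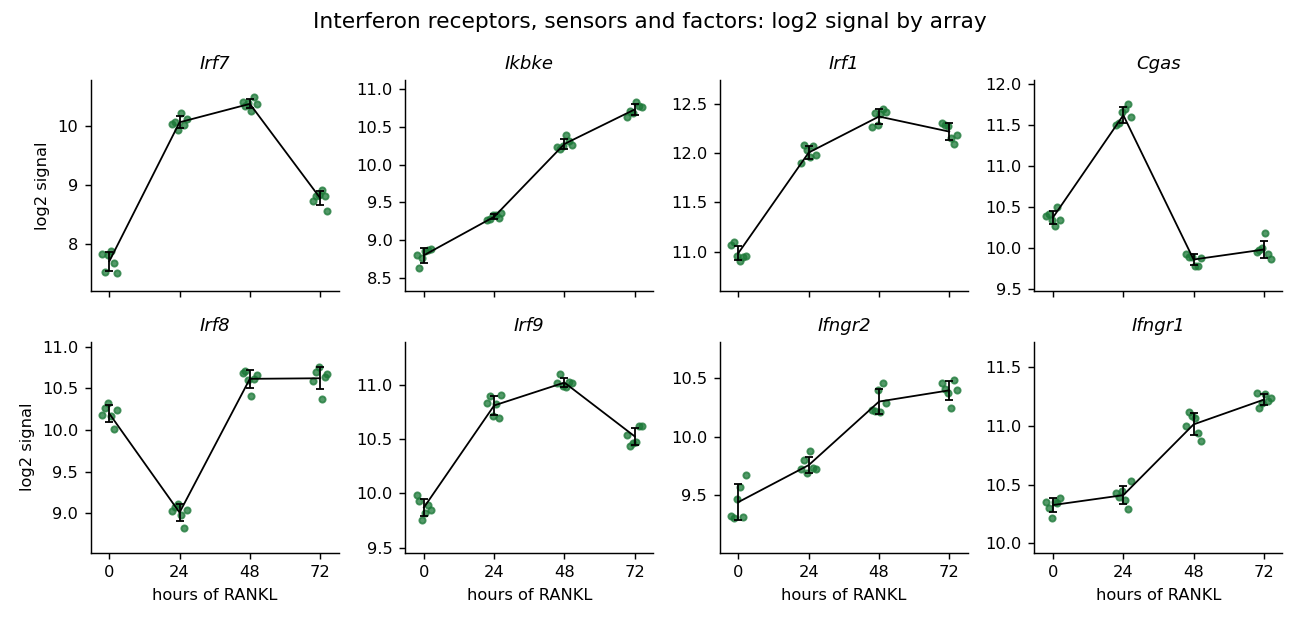
Log2 signal on each array (green points, 6 per time) against hours of RANKL for the 8 signalling genes with the largest change from 0 h, with lines through the means and bars of 1 SD. Irf7 rises to a median of 10.39 at 48 h and falls to 8.82 at 72 h, Ikbke climbs at every step to 10.74, and Irf8 dips to 9.03 at 24 h.

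A further 52 interferon-induced genes outside the members, also chosen with earlier results of these data known, were examined, of which 41 were tested. At 24, 48 and 72 h against 0 h, 36, 40 and 33 of them were higher and 3, 0 and 2 lower, with medians of 0.82, 0.83 and 0.38. Among all genes, 29.2%, 33.1% and 34.2% were higher and 37.8%, 39.2% and 39.4% lower in these comparisons. From 24 h to 48 h, 18 were higher and 16 lower, which is near the background of 39.2% and 34.6%, and the median of 0.08 turned to -0.03 with median scaling. From 48 h to 72 h, 2 were higher and 31 lower, beside 17.4% and 19.4% of all genes.

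Cxcl10, which encodes a chemokine that recruits T cells, had the largest rise of these 41 genes. It ran from 6.77 to 7.11 (7.03) at 0 h, where 3 arrays detected it, 11.28 to 11.49 (11.45) at 24 h, 8.46 to 8.83 (8.56) at 48 h and 7.26 to 7.46 (7.31) at 72 h. The rise was 21.7-fold at 24 h (adjusted p = 1.41e-35 in limma) and fell by 2.83 in log2 over the next day. Another Cxcl10 probe, detected on 6 arrays at 24 h and on 0 at the other times, changed by 1.91 at 24 h. Gbp7, a further guanylate-binding protein gene, was detected on 0 arrays at 0 h and was at least 2.89-fold higher at 24 h and at least 2.29-fold at 48 h. The ISG15-conjugating enzyme gene Ube2l6 exceeded its 0 h level 3.87-fold, 2.95-fold and 2.03-fold by 24, 48 and 72 h, and Phf11d did so 3.38-fold, 2.65-fold and 1.17-fold. Their other probes differed at 72 h. Another Ube2l6 probe changed by 1.60, 0.99 and 0.13 in log2 at these times, and another Phf11d probe by 1.82, 1.55 and 0.74.

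In contrast, Cd274, which encodes the immune checkpoint ligand PD-L1, rose late, with changes of 0.37, 1.96 and 2.17, and Lgals3bp, Mndal and Gvin1 were highest at 48 h, with changes there of 1.75, 1.68 and 1.62. Gvin1 encodes a very large interferon-inducible GTPase and Mndal a DNA-binding protein of the Ifi204 family. The 72 h level of Cd274 lay above that at 48 h on all arrays, whereas 0 of the 33 tested members rose over that day by the test.

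Markers of other cells moved over the same times. Of 14 neutrophil and granulocyte precursor markers, 13 were tested and 13 were lower at 24, 48 and 72 h than at 0 h, with medians of -1.45, -1.47 and -2.88, and their summed signal went from 63402 to 68863 at 0 h to 27604 to 29149, 25159 to 26611 and 11777 to 13226. Of 6 plasmacytoid dendritic cell markers, 4 were tested and their summed signal went from 1699 to 1960 at 0 h to 1919 to 2288 at 24 h, with Ccr9 detected on 0 arrays. At 24 h Tcf4, detected on every array, was higher by 0.33 and Ly6d changed by -0.91, while Siglech at 0.03 and Spib at -0.09 did not pass. Of 9 T and NK cell markers, 2 were tested, Prf1, which was 1.61-fold higher at 24 h, and Nkg7, which changed by -0.39, and Cd3d, Cd3e, Cd3g, Cd2, Ncr1, Klrb1c and Gzmb were detected on 0 of the 24 arrays. The summed signal of the 7 tested macrophage markers was 22126 to 24030 at 0 h, 19655 to 22012 at 24 h, 32803 to 36014 at 48 h and 27121 to 30053 at 72 h. Of 6 erythroid and megakaryocyte markers, 3 were tested and 3 were lower at each time, with a change of -2.95 for Pf4 at 72 h and a summed signal of 7546 to 9258 at 0 h and 1885 to 2277 at 72 h. The stroma markers Col1a1 and Dcn did not pass at 24 h, were higher at 48 h by 0.98 and 0.89 and at 72 h by 1.08 and 2.08, and the other 2 of this list were not tested. Of 6 B cell markers, 2 were tested, and Cd79b changed by -0.77 at 24 h while Ebf1 at -0.03 did not pass. The part of these cells in the member changes was not tested.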

How the data were processed

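Total RNA of 24 BMM samples was hybridised to Illumina mouse bead arrays, 1 array per sample. Deposited probe signal intensities came from the authors' use of Illumina GenomeStudio, without normalization between arrays and with no background subtracted. The authors also deposited a detection p-value per probe and array. A further table of processed values on a log2 scale was deposited by the authors. The study's methods name a log transformation and quantile normalization, yet the array medians in this table differ, from 1.90 to 1.99, and its scaling was not settled here. The paper names another labelling kit than the labels do. No genome build is given for the arrays, and gene positions and promoters are those of RefSeq on GRCm38.p6.

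The log2 signals were quantile normalized in limma 3.58.1 (R 4.3.3). Of 45281 probes, 34885 had a single gene symbol in the platform annotation, 18 had several and 10378 had none, with Entrez IDs matching 34807. A probe was kept when 3 or more of the 6 arrays at any one time had a detection p below 0.05, and each gene was read from its brightest kept probe on average. The 4 times entered one limma model (lmFit, then eBayes with trend; residual degrees of freedom 20). Benjamini-Hochberg adjustment ran over the 9917 genes. The fit was tested on simulated data.

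The 42 members, the lists of 29 and 52 further genes and the marker lists were chosen with earlier results of these data known. Values by array are given for the 12 antiviral genes with the largest change from 0 h and for every tested GTPase, and up to 8 genes of each further list are named by the same measure. Other settings tried were, for signals, normexp correction, scaling to the median or the 75th percentile and the processed values deposited by the authors; for probes, a strict filter, no filter, the second-highest probe or an average over kept probes; and for the test, no trend in eBayes, array weights, only the 12 arrays compared, a block by replicate number, leaving out single replicates, a 1.5-fold rule and the methods' t-test under Bonferroni or Benjamini-Hochberg adjustment. The comparison of 72 h with 24 h was added after the data were seen. Figures were drawn with matplotlib 3.10.9.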

Additional observations from a re-analysis of the deposited data

Results flagged for a closer look

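In 7 of 132 groups of 6 arrays, a single array of a member stood apart from the others by more than Dixon's critical value, and chance alone flags about 1 in 20 groups. At 48 h, replicate 4 was low for Isg15, at a log2 signal of 9.62 beside 9.86 to 10.01 on the other arrays, and low for Ifi47, at 9.91 beside 10.18 to 10.34, but high for Ifi35, at 9.94 beside 9.73 to 9.80. At 0 h, replicate 5 was high for Parp14, at 11.00 beside 10.79 to 10.85, and for Igtp, at 9.11 beside 8.85 to 8.95, and replicate 1 was high for Rsad2, at 9.36 beside 9.24 to 9.27. At 24 h, replicate 3 was high for Mx1, at 7.93 beside 7.63 to 7.73.

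Oas1a and Irgm1 changed in opposite directions at 24 h and at 72 h. For Oas1a the change from 0 h was 0.73 at 24 h and -0.35 at 72 h, and the difference between these times was -1.08 (adjusted p = 7.87e-17 in limma). For Irgm1 the changes were 0.24 and -0.26 and the difference was -0.50 (adjusted p = 1.97e-09 in limma), in the brightest of its probes only.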

How the results depend on the processing

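Over the settings run, antiviral genes higher than at 0 h numbered 24 to 29 at 24 h and 23 to 29 at 48 h, and higher GTPases at 24 h 4 to 7. The lowest GTPase count came with the authors' processed values, median scaling, 75th percentile scaling, Bonferroni adjustment and the 1.5-fold rule, and the highest with no filter on dim probes, where GTPase medians against 0 h were 0.99, 0.74 and 0.36. Of 3610 values for single genes, 3403 kept direction and side of the threshold, 162 no longer passed, 19 newly passed, 16 unpassed values moved and 10 reversed. Higher antiviral genes at 72 h against 0 h numbered 11 with the methods' t-test and Bonferroni adjustment and 11 with the 1.5-fold rule, both stricter by construction, and 21 to 24 with a replicate left out. Lower antiviral genes at 72 h numbered 2 with the authors' processed values, median scaling, 75th percentile scaling and averaged probes, and 0 with Bonferroni adjustment and the 1.5-fold rule. From 24 h to 48 h, higher antiviral genes numbered 1 with the authors' processed values and median scaling, 0 with Bonferroni and the 1.5-fold rule and 2 to 4 with a replicate left out, and lower ones 8 with Bonferroni and 7 with the 1.5-fold rule. From 48 h to 72 h, 17 antiviral genes and 3 GTPases were lower by the 1.5-fold rule, and 25 to 26 and 4 to 5 with a replicate left out.

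GTPases lower at 48 h than at 0 h numbered 1 with the authors' processed values, median scaling, 75th percentile scaling and array weights, and 0 to 1 with a replicate left out. At 72 h the count was 0 with averaged probes, the second-highest probe, Bonferroni and the 1.5-fold rule. From 24 h to 48 h, higher GTPases numbered 1 with the authors' processed values, median scaling and the methods' t-test with Benjamini-Hochberg adjustment, 0 with Bonferroni and the 1.5-fold rule and 1 to 2 with a replicate left out, and lower ones 1 with the second-highest probe and when kept probes were averaged, and 0 with Bonferroni and the 1.5-fold rule. The cause of the other moves was not tested.

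With the second-highest probe, Oasl2 from 24 h to 48 h became 0.01, Dtx3l from 48 h to 72 h became 0.02 and Sp100 from 24 h to 48 h became 0.61, or 0.32 when kept probes were averaged. Irgm1 became -0.00 at 24 h with 75th percentile scaling, 0.83 at 48 h and 0.48 at 72 h when kept probes were averaged, and 1.83 at 48 h, 1.27 at 72 h and 0.25 from 24 h to 48 h with the second-highest probe.

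Arrays with the same replicate number correlated at a median of 0.137 (from -0.207 to 0.494 over 36 pairs). Arrays with other numbers had a median of -0.014 (from -0.411 to 0.528 over 180 pairs). Both are correlations of deviations from the time means. Of the 24 arrays, 10 correlated best with their own number, so same-number arrays were somewhat more alike. The labels do not say what the numbers stand for, and the main model did not pair the samples. With the replicate number as a block, antiviral genes higher at 48 h than at 24 h numbered 4 in place of 3, through Trim30a at 0.16 (adjusted p = 0.0359 in limma), and no other count of calls changed. A block by slide was not run, since the files name no slide. With only the genes detected at 0 h, an alternative chosen after seeing the data, the antiviral medians against 0 h were 1.48, 1.20 and 0.39. Precision is limited by having 6 arrays per time, and folds of the dimmest probes by their signal over background.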

Other observations

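Genes of the further lists that the rule by size of change did not name are given here as values, chosen after they were seen. The antigen presentation genes Tap1, Psmb8, Psmb9 and Nlrc5 were higher at 24 h than at 0 h, by 1.25, 0.82, 0.69 and 0.89 in log2, and at 72 h by 0.35, 0.49, 0.37 and 0.48. In contrast, the sensor and adaptor genes Tlr7, Sting1 and Ticam1 were lower at 24 h, by -0.85, -0.75 and -0.76, and then higher at 48 h than at 24 h, by 1.63, 0.90 and 0.71. Ifi27l2a, an interferon-induced mitochondrial protein gene, changed by -0.19 at 24 h, 1.12 at 48 h and -0.59 at 72 h against 0 h, so its rise stood at 48 h, with 6 of 6 arrays measured at each time.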
